A study of Mus musculus with 6 samples.

Results

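The 9 genes described here, out of 20295 in the count table, encode proteins that carry retinol, take it up into cells or oxidise it towards retinoic acid. They were chosen by symbol and comprise Rbp4, Rbp7, Stra6, Adh1, Adh7, Rdh10, Aldh1a1, Aldh1a2 and Aldh1a3. RNA was sequenced from 6 libraries of primary adipocytes differentiated in culture, with 2 libraries for each of 3 mouse fat depots. The depots were brown fat (BAT, pooled from interscapular, cervical and axillary pads), inguinal white fat (iWAT) and epididymal white fat (eWAT). All cells were stromal-vascular cells, the mixture left after collagenase digestion once the mature adipocytes are removed, taken from NMRI males of 4 to 5 weeks. The differentiation medium was the same for every culture (insulin at 30 nM, rosiglitazone, a Pparg-activating drug, at 1 µM, and newborn calf serum at 10%), and harvest was on day 8 after plating. Cultures entered the study where more than 50% of the cells had differentiated, so each library is a mixture of adipocytes and other cells, and fewer cells of a type and less RNA per cell cannot be told apart. Whether the 2 replicates per depot derive from separate mice or dishes is not in the labels, so the p-values reflect the spread between these libraries alone, and that spread may be technical.

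Retinol travels in blood bound to the carrier protein encoded by Rbp4, enters cells partly through the membrane receptor Stra6, and is held inside cells by small binding proteins such as that of Rbp7. Alcohol dehydrogenases (Adh1, Adh7) and the membrane-bound retinol dehydrogenase Rdh10 oxidise retinol to retinaldehyde, and the retinaldehyde dehydrogenases of the Aldh1a family oxidise that irreversibly to retinoic acid. Retinoic acid activates the nuclear receptors RAR, which pair with RXR. Fat is a known store of retinyl esters, and adipocytes are a known source of Rbp4 in mice.

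Total counts per library ran from 2889038 to 4807449, and 3 counts, the detection limit used here, came to between 0.634 and 1.147 CPM (read counts scaled to a common library total with trimmed-mean factors). The adipocyte marker list was high in all 6 libraries, with 10 of 10 markers tested and summed levels of 32945 and 43843 CPM in BAT, 28904 and 27857 CPM in iWAT and 25351 and 30132 CPM in eWAT. Fabp4 was the largest part of each sum, at 25312 and 32204 CPM in BAT and 15887 and 16604 CPM in eWAT. Of the 10, Cfd was called lower in BAT than in eWAT, at 10.4 and 17.2 against 78.7 and 178 CPM. With the block Cfd was called lower and Pparg higher there. The brown adipocyte list summed to 6350 and 11599 CPM in BAT, 1603 and 1402 CPM in iWAT and 275 and 386 CPM in eWAT, where Zic1 was at 0. Among its 10 genes, 8 were called higher in BAT than in eWAT and 2 higher in BAT than in iWAT, and with the block 10 and 9. Of all tested genes, 2.71% and 0.145% were called higher in these contrasts, and 10.9% and 4.55% with the block.

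Of the 9 retinoid genes, 8 had enough counts to be tested. In the edgeR quasi-likelihood test with depot as the only term, a gene was called at a Benjamini-Hochberg adjusted p below 0.05 over 11732 genes. Rbp7 and Adh7 were called higher and Aldh1a1 lower in BAT than in eWAT, which makes 3 of 8 genes (2 higher, 1 lower; Adh7 had 2 and 3 counts in eWAT, at the detection limit), where 2.71% of all tested genes were called higher, 3.75% lower and 6.46% either way. With library totals in place of trimmed-mean factors, 251 genes were higher and 575 lower there, against 318 and 440. None of the 8 was called between BAT and iWAT, where 1.04% of all tested genes were called (0.145% higher, 0.895% lower), or between iWAT and eWAT, where the percentage was 0. The median log2 fold change of the 8 genes was -0.14 for BAT against eWAT, 0.12 for BAT against iWAT and -0.15 for iWAT against eWAT, beside medians of -0.03, -0.02 and 0.01 over all tested genes in the same contrasts.

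Libraries with the same replicate number deviated together across depots, so a fit with the replicate number as a block was read beside the depot-only fit. With the block, edgeR called 5 of the 8 between BAT and eWAT, with 3 higher in BAT and 2 lower, adding Rbp4 and Aldh1a2, where 23.7% of all tested genes were called (10.9% higher, 12.8% lower). With the block, 1 gene (Aldh1a1) was lower in BAT than in iWAT, against 10.4% of all genes (4.55% higher, 5.89% lower), and 2 were higher (Rbp7, Adh7) and 2 lower (Aldh1a1, Aldh1a2) in iWAT than in eWAT, against 4.8% (1.66% higher, 3.14% lower). At an unadjusted p below 0.05 the depot-only fit held 1096 genes between iWAT and eWAT, and DESeq2 without the block called 301 there, 3 of them among the 8.

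**Figure D1:**
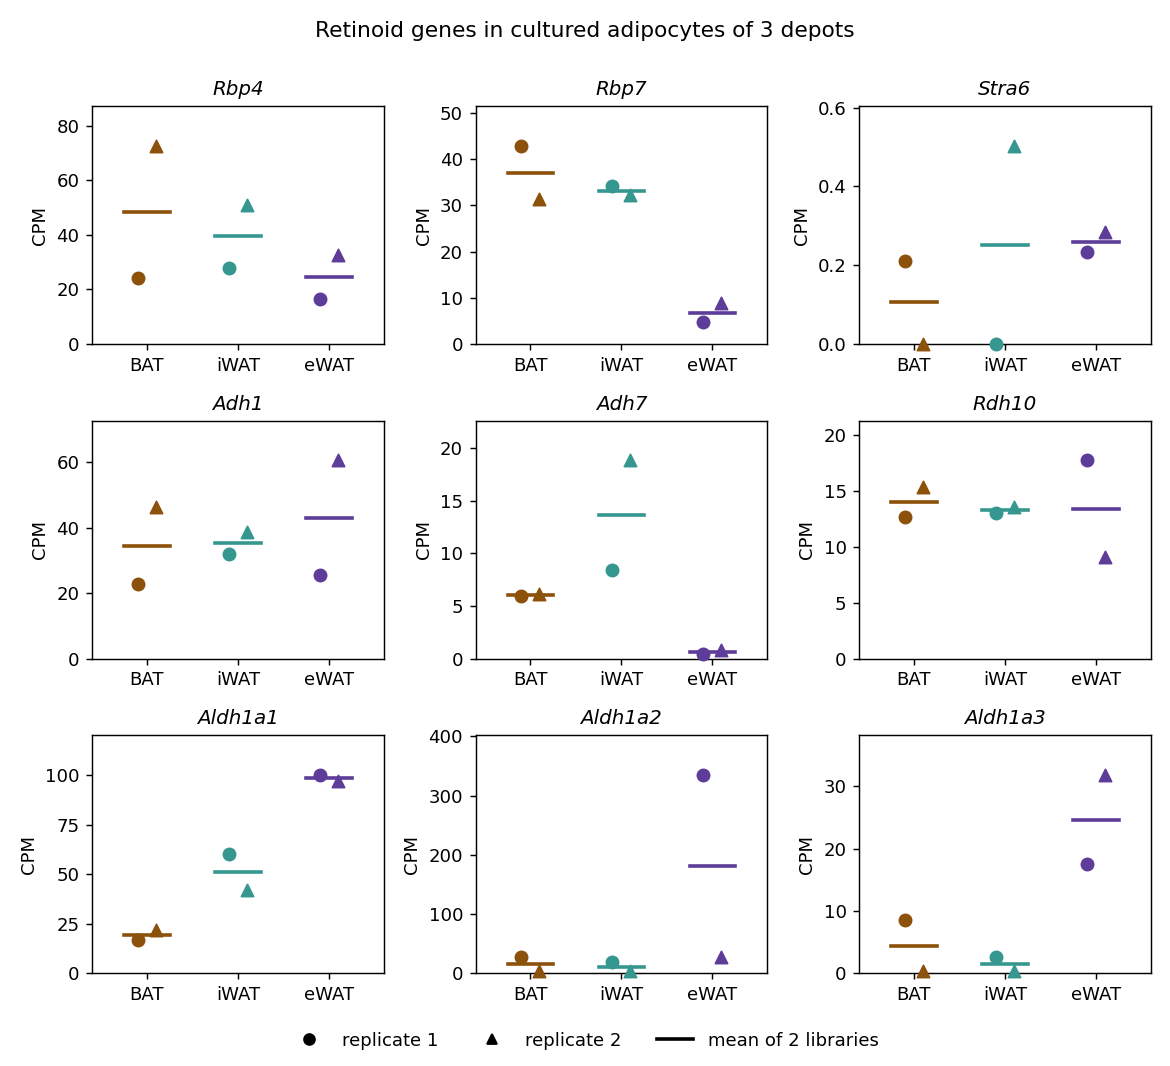
Level of each of the 9 retinoid genes in CPM (linear axes from 0) in BAT, iWAT and eWAT libraries, with circles for replicate 1, triangles for replicate 2 and a line for the mean of the 2. Rbp7 and Adh7 sit lowest in eWAT, Aldh1a1 sits lowest in BAT and highest in eWAT, and the eWAT libraries of Aldh1a2 lie far apart at 335 and 27.3 CPM.

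**Figure D2:**
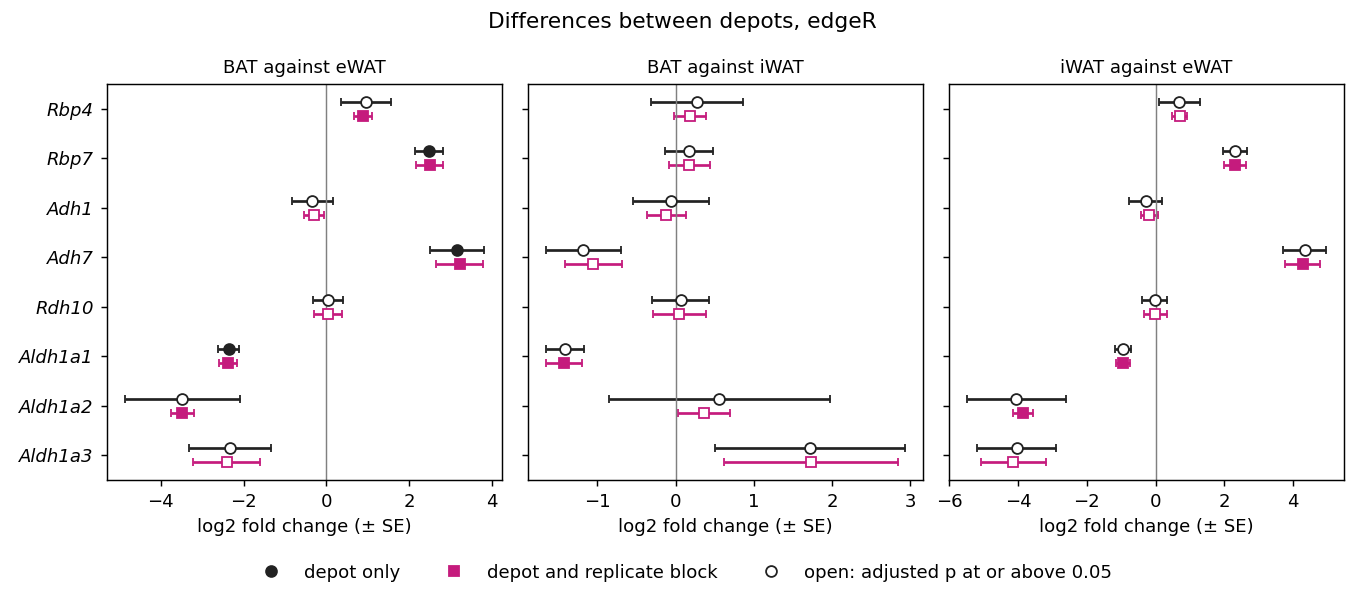
Log2 fold change with its standard error for the 8 tested genes in the 3 contrasts, from the edgeR fit with depot only (black circles) and with depot and replicate block (pink squares), with open symbols at an adjusted p of 0.05 or above. The point estimates of both fits lie close together, and the standard error of Aldh1a2 for BAT against eWAT is 1.39 without the block and 0.28 with it.

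The secreted carrier Rbp4 (NM_001159487; mm9 chromosome 19, 38191110 to 38199811, minus strand) was at 24.3 and 72.6 CPM in BAT, 27.9 and 51.03 CPM in iWAT and 16.5 and 32.7 CPM in eWAT. In each depot replicate 2 was the higher library, and the ranges of the depots overlapped. The log2 fold change for BAT against eWAT was 0.96 (SE 0.60, adjusted p = 0.372 by edgeR), and 0.88 (SE 0.22, adjusted p = 0.0257) with the block. Within replicate 1 the difference was 0.54 and within replicate 2 it was 1.14. Without BAT replicate 2 the depot-only value was -0.01, and DESeq2 with the block gave an adjusted p of 0.0647.

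Rbp7, an intracellular retinol-binding protein found in white fat of the mouse, was at 42.9 and 31.4 CPM in BAT, 34.2 and 32.2 CPM in iWAT and 4.66 and 8.82 CPM in eWAT. Every BAT and iWAT library was above both eWAT libraries, and the BAT and iWAT ranges overlapped. The gene (NM_022020; mm9 chromosome 4, 148823811 to 148829077, minus strand) had 203 and 82 counts in BAT against 20 and 31 counts in eWAT. It was 5.58-fold higher in BAT than in eWAT (log2 fold change 2.48, SE 0.35, edgeR adjusted p = 0.0232), and 3.07 and 1.77 on the log2 scale within replicates 1 and 2. For iWAT against eWAT the log2 fold change was 2.31 (SE 0.35), with an adjusted p of 0.112 from edgeR with depot only and 0.009 with the block. For BAT against iWAT it was 0.17 (SE 0.31, edgeR adjusted p = 0.834). With the compared depots alone, Rbp7 was not called between BAT and eWAT (edgeR adjusted p = 0.0585). The call of BAT against eWAT was lost without BAT replicate 2 (adjusted p = 0.0832), eWAT replicate 1 (0.0837), iWAT replicate 1 (0.0524) or iWAT replicate 2 (0.0552), with log2 fold changes from 2.08 to 2.999 over all omissions.

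Stra6, the membrane receptor that takes retinol from Rbp4, was at the limit of detection. It had 1 and 0 counts in BAT, 0 and 2 counts in iWAT and 1 and 1 counts in eWAT, and it did not pass the filter on low counts. These counts are at or below the limit of 3 in each library, and no fold is given. Its gene (NM_001162475) lies at mm9 chromosome 9, 57976895 to 58001804, plus strand.

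Among the alcohol dehydrogenases, Adh1 (NM_007409; mm9 chromosome 3, 137940609 to 137953655, plus strand), a class I enzyme with broad substrates, had overlapping ranges in the depots. Its levels were 22.8 and 46.3 CPM in BAT, 32.0 and 38.7 CPM in iWAT and 25.6 and 60.6 CPM in eWAT, and all 3 ranges overlapped. Its log2 fold change was -0.33 (SE 0.48) for BAT against eWAT, -0.05 (SE 0.49) for BAT against iWAT and -0.28 (SE 0.48) for iWAT against eWAT, with edgeR adjusted p-values of 0.712, 0.972 and 0.992.

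Adh7, a class IV enzyme active on retinol, was at 5.92 and 6.12 CPM in BAT, 8.42 and 18.9 CPM in iWAT and 0.466 and 0.853 CPM in eWAT. The eWAT values are 2 and 3 counts, at the limit of detection, against 28 and 16 counts in BAT and 35 and 75 counts in iWAT, so the gene passed the filter through BAT and iWAT. All BAT libraries lay above all eWAT libraries and below all iWAT libraries. The gene (NM_009626; mm9 chromosome 3, 137880737 to 137895006, plus strand) was called higher in BAT than in eWAT (log2 fold change 3.16, SE 0.65, edgeR adjusted p = 0.0446), a size that rests on 5 counts in eWAT, and the within-replicate differences, which include a prior count, were 2.71 and 2.28. For iWAT against eWAT the log2 fold change was 4.33 (SE 0.62), with an edgeR adjusted p of 0.0974 with depot only and 0.0053 with the block, and for BAT against iWAT it was -1.18 (SE 0.47, edgeR adjusted p = 0.290). The call of BAT against eWAT was lost on leaving out any of the 6 libraries, with adjusted p-values from 0.0615 without iWAT replicate 1 to 0.217 without eWAT replicate 1 and log2 fold changes from 2.77 to 3.61. With limma voom in place of edgeR its adjusted p was 0.130, and with the compared depots alone the edgeR adjusted p was 0.0606.

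Rdh10, the membrane-bound retinol dehydrogenase, had nearly equal depot means of 13.99 ± 1.85 CPM in BAT, 13.3 ± 0.41 CPM in iWAT and 13.4 ± 6.08 CPM in eWAT (SD, n = 2 each). Its libraries were at 12.7 and 15.3 CPM in BAT, 13.0 and 13.6 CPM in iWAT and 17.7 and 9.10 CPM in eWAT, and the eWAT range spanned all other libraries. The log2 fold change was 0.04 (SE 0.37) for BAT against eWAT, 0.07 (SE 0.37) for BAT against iWAT and -0.02 (SE 0.36) for iWAT against eWAT, none of them called by edgeR. The gene (NM_133832) lies at mm9 chromosome 1, 16095963 to 16122631, plus strand.

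Aldh1a1, a retinaldehyde dehydrogenase known from mouse white fat, was lowest in BAT and highest in eWAT. It was at 16.9 and 21.8 CPM in BAT, 60.4 and 41.7 CPM in iWAT and 100.2 and 97.0 CPM in eWAT, and no 2 depots overlapped. The gene (NM_013467; mm9 chromosome 19, 20676472 to 20717952, plus strand) was 5.13-fold lower in BAT than in eWAT (log2 fold change -2.36, SE 0.25, edgeR adjusted p = 0.0149), with -2.53 and -2.13 within replicates 1 and 2. The iWAT level lay between the others: the log2 fold change was -1.41 (SE 0.25) for BAT against iWAT and -0.95 (SE 0.23) for iWAT against eWAT. These steps had edgeR adjusted p-values of 0.0718 and 0.210 with depot only, and of 0.013 and 0.0422 with the block. The call of BAT against eWAT was lost without BAT replicate 2 (adjusted p = 0.0797), eWAT replicate 1 (0.0504) or eWAT replicate 2 (0.051), at log2 fold changes of -2.54 to -2.17 over all omissions. Aldh1a1 has a near-identical neighbour, Aldh1a7, which was at 97.2 and 147 CPM in BAT, 180 and 188 CPM in iWAT and 127 and 133 CPM in eWAT (log2 fold change for BAT against eWAT -0.09, edgeR adjusted p = 0.834). How reads that match both genes were counted is not given in the sources used here, so the split between them is uncertain.

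Aldh1a2, the retinaldehyde dehydrogenase best known from the embryonic mesoderm, differed both between depots and between replicate numbers. It was at 27.7 and 2.68 CPM in BAT, 18.04 and 3.77 CPM in iWAT and 335 and 27.3 CPM in eWAT. Replicate 1 was the higher library in every depot, BAT replicate 1 lay just above eWAT replicate 2, and within a replicate number eWAT was the highest of the 3 depots. For BAT against eWAT the log2 fold change was -3.49, with SE 1.39 and an edgeR adjusted p of 0.180 with depot only, and with SE 0.28 and an adjusted p of 0.000632 with the block. Within replicates 1 and 2 it was -3.57 and -3.12. For iWAT against eWAT the log2 fold change was -4.05 (SE 1.44, edgeR adjusted p = 0.421), and -3.84 (SE 0.29, adjusted p = 0.0018) with the block. Within replicates 1 and 2 it was -4.18 and -2.70. Without the eWAT replicate 1 library, which held 1438 counts, the depot-only log2 fold change was -0.78 for BAT against eWAT and -1.31 for iWAT against eWAT. That fit sets eWAT replicate 2 against both libraries of the other depot. The gene (NM_009022) lies at mm9 chromosome 9, 71063596 to 71144050, plus strand.

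Aldh1a3, the least abundant of the 3 family members on average per length, was at 8.45 and 0.382 CPM in BAT, 2.65 and 0.251 CPM in iWAT and 17.5 and 31.9 CPM in eWAT. Both eWAT libraries lay above all others, and replicate 2 of BAT and of iWAT held 1 count each. Its log2 fold change was -2.32 (SE 0.99) for BAT against eWAT and -4.04 (SE 1.145) for iWAT against eWAT, with edgeR adjusted p-values of 0.206 and 0.271 with depot only and 0.0696 and 0.0549 with the block. Within replicate 1 the difference of BAT from eWAT was -1.004 and within replicate 2 it was -5.17. DESeq2 without the block called iWAT lower than eWAT (adjusted p = 0.0268). The gene (NM_053080) lies at mm9 chromosome 7, 73535779 to 73572363, minus strand.

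On a scale per length, the Aldh1a family summed to 23.0 and 12.0 CPM per kilobase in BAT, 38.5 and 22.3 in iWAT and 202 and 69.2 in eWAT. Aldh1a1 made up 36.1% and 89.2% of that sum in BAT, 77.3% and 92.2% in iWAT and 24.4% and 69.0% in eWAT, with replicate 1 given first. Aldh1a2 made up 53.1% and 9.84% in BAT, 20.7% and 7.48% in iWAT and 73.1% and 17.4% in eWAT. In replicate 2 the larger part of the sum was Aldh1a1 in all 3 depots, and in replicate 1 it was Aldh1a2 in BAT and eWAT. Among the 9 genes the highest mean level per length was that of Rbp7 in BAT (62.5 ± 13.7 CPM per kilobase) and in iWAT (55.8 ± 2.36), and that of Aldh1a2 in eWAT (80.0 ± 96.1), ahead of Aldh1a1 (48.5 ± 1.11; SD, n = 2 each). The spread of Aldh1a2 in eWAT exceeded its mean, so its order above Aldh1a1 there does not hold beyond the spread between libraries.

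**Figure D3:**
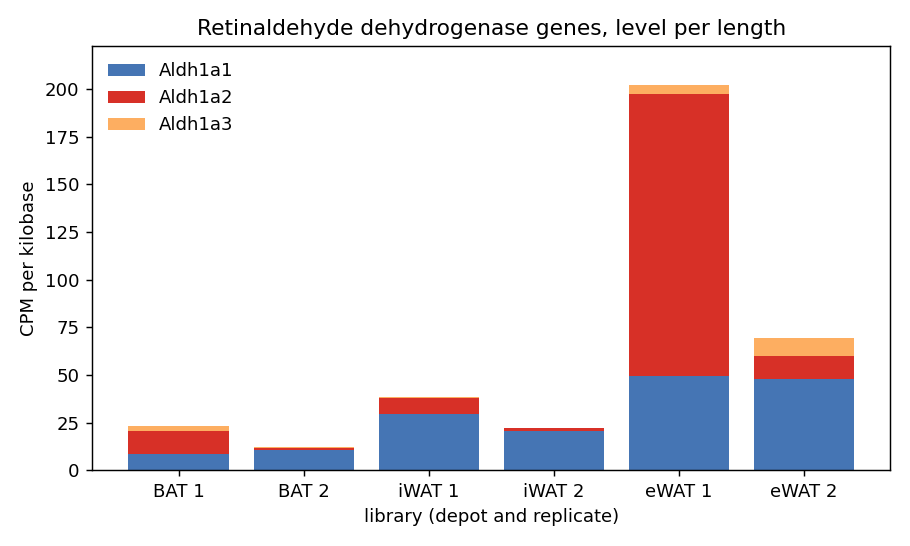
Stacked levels per length (CPM per kilobase) of Aldh1a1 (blue), Aldh1a2 (red) and Aldh1a3 (orange) in each library, with no error bars because each bar is 1 library. The sum is highest in eWAT replicate 1 at 202, of which Aldh1a2 is 73.1%, and the Aldh1a1 segment is close in both eWAT libraries.

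The promoters of Rbp7 and Adh7, which were both lowest in eWAT, and of Aldh1a1 and Aldh1a2, whose means were both highest there, are printed as the 250 bases before the annotated start, from RefSeq on GRCm38.p6, 5′ to 3′ on the gene's strand. RefSeq windows were matched by symbol for 7 of the 9 genes, and Aldh1a3 and Rdh10 had none. Capitals mark every match, on either strand, to the receptor half-sites AGGTCA and AGTTCA, the direct repeats AGGTCANAGGTCA and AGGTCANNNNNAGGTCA bound by nuclear receptor pairs, the TATAAA box or the CCAAT box. The half-site AGGTCA lies within both repeats. Only the spellings AGGTCA and AGTTCA of the half-site were searched, so any other spelling stands unmarked.
Rbp7 (chr4:149454969-149455218, minus strand): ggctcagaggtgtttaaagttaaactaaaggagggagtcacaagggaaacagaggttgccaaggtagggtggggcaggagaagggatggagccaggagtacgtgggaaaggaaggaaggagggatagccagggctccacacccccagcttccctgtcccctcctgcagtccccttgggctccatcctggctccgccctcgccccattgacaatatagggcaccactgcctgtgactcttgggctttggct
Adh7 (chr3:138217523-138217772, plus strand): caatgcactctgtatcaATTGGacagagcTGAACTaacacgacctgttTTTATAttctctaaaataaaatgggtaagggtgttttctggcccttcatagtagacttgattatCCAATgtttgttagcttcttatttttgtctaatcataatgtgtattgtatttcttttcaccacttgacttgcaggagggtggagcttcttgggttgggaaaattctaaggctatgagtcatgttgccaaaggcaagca
Aldh1a1 (chr19:20601718-20601967, plus strand): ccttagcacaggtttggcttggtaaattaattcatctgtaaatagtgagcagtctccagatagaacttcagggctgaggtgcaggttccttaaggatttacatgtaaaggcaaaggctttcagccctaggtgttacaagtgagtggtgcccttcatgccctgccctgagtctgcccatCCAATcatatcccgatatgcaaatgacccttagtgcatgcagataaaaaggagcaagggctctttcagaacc
Aldh1a2 (chr9:71215539-71215788, plus strand): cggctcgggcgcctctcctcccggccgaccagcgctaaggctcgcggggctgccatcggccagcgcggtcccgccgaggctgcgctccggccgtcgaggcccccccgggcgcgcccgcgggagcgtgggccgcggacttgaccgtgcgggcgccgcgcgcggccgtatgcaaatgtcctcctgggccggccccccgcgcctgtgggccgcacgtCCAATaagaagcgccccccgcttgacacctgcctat
The Rbp7 window held none of the 6 motifs. The Adh7 window held AGTTCA and TATAAA on the minus strand and CCAAT once on each strand, and the Aldh1a1 and Aldh1a2 windows held CCAAT once, from 72 and from 36 bases before the start. None of the 7 windows held AGGTCA or either repeat. Over 32851 promoter windows of 250 bases, AGGTCA was in 14%, AGTTCA in 11.8%, the spacer-1 and spacer-5 repeats in 0.0335% and 0.00913%, TATAAA in 12.4% and CCAAT in 33.8%. The Aldh1a2 window was the richest of the 4 in G and C (77.6%, with 40 CpG dinucleotides), ahead of Rbp7 (58.4%, 3 CpG), Aldh1a1 (46.4%, 1 CpG) and Adh7 (38%, 1 CpG), beside a median of 52.4% and 6 CpG over all windows. A match of letters is a description of the window and not a bound site.

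The difference between replicate numbers was read from the blocked fit, a comparison added after the data were seen. Replicate 1 was above replicate 2 for Aldh1a2 by 3.28 on the log2 scale (SE 0.25, edgeR adjusted p = 0.00185), with 3.14 in BAT, 2.11 in iWAT and 3.59 in eWAT. By the smallest of the 3 depot differences, Aldh1a2 ranked 15 among 11732 genes. Replicate 1 was below replicate 2 for Rbp4 by a log2 difference of -1.15 (SE 0.18, edgeR adjusted p = 0.0135), with -1.56, -0.86 and -0.96 in BAT, iWAT and eWAT. These were 2 calls among the 8 retinoid genes, 1 higher and 1 lower, where 6.77% of all tested genes were called (4.77% higher, 1.99% lower). Adh1 had the sign of Rbp4 in all 3 depots, at -0.84 (SE 0.20, edgeR adjusted p = 0.0517), and so did Adh7, at -0.72 (SE 0.35, edgeR adjusted p = 0.242). Neither was called. For Adh7 the differences were -0.044 in BAT, -1.12 in iWAT and -0.48 in eWAT, the last from 2 and 3 counts. Aldh1a1 (0.12), Rbp7 (0.04) and Rdh10 (0.20) had smaller log2 differences, whose signs were mixed among depots, and so were those of Aldh1a3, at 3.32 in BAT, 2.04 in iWAT and -0.85 in eWAT.

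**Figure D4:**
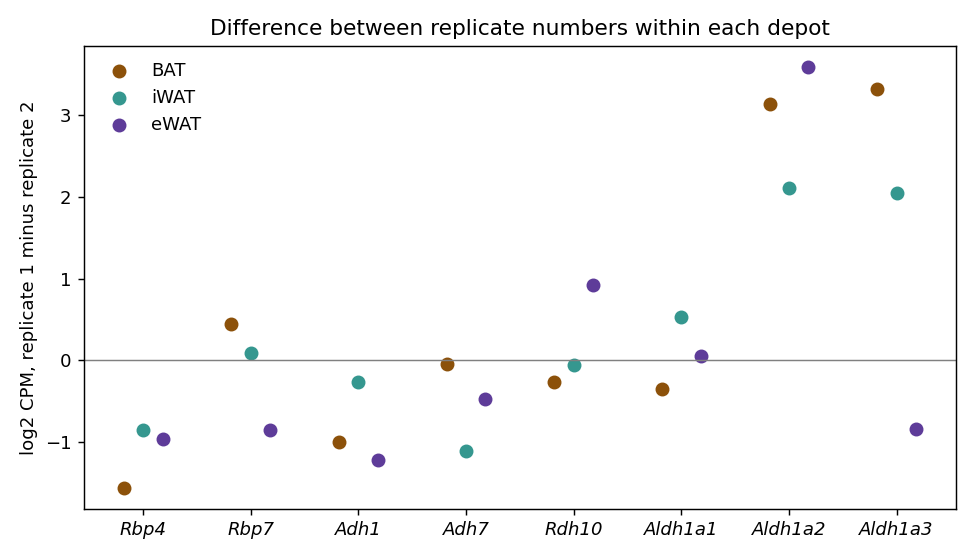
Log2 CPM of replicate 1 minus replicate 2 within BAT (brown), iWAT (teal) and eWAT (purple) for the 8 tested retinoid genes. The 3 points of Aldh1a2 lie between 2.11 and 3.59, those of Rbp4 between -1.56 and -0.86, and those of Aldh1a3 on both sides of 0.

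The macrophage marker list was highest in eWAT, as were the means of the 3 Aldh1a genes, and it was higher in replicate 1, as was Aldh1a2. For BAT against iWAT its median log2 fold change was -0.58, beside -1.41 (SE 0.25) for Aldh1a1, 0.56 (SE 1.42) for Aldh1a2 and 1.71 (SE 1.22) for Aldh1a3. None of the 3 Aldh1a genes was called there by edgeR with depot only. On leaving out a library the values ran from -2.02 to 2.09 for Aldh1a2 and from -1.85 to 4.11 for Aldh1a3, so neither sign is settled. Its 11 genes, none at 0 in a depot, summed to 439 and 96.0 CPM in BAT, 650 and 190 CPM in iWAT and 4777 and 2122 CPM in eWAT. In the depot-only fit 7 of 11 were called lower in BAT than in eWAT, where 3.75% of all tested genes were, and 0 in the other contrasts. With the block 11 were called lower in BAT than in eWAT (12.8% of all tested genes), 1 in BAT than in iWAT (5.89%) and 11 in iWAT than in eWAT (3.14%). Between replicate numbers 10 of 11 were above in replicate 1 in all 3 depots, 5 of them called, where 4.77% of all tested genes were called higher. The share of all tested genes above in replicate 1 in all 3 depots is not given here. Lyz2, the lysozyme of myeloid cells, was at 323 and 61.2 CPM in BAT, 457 and 119 CPM in iWAT and 3633 and 1443 CPM in eWAT. The part of macrophage RNA in the levels of the Aldh1a genes was not tested. Between replicate numbers Aldh1a1 differed by 0.12 on the log2 scale, beside a median of 1.07 for the macrophage list.

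The list for mesothelial cells, which line the epididymal pad and are known to express Aldh1a2, had 4 of 11 genes tested and summed to 15.6 and 17.6 CPM in BAT, 33.0 and 13.8 CPM in iWAT and 39.8 and 73.9 CPM in eWAT. In iWAT 6 of the 11 were at 0 (Msln, Upk3b, Upk1b, Krt8, Krt18 and Gpm6a). The eWAT library with the higher sum was replicate 2, where Aldh1a2 was the lower. Wt1 was at 1.69 and 0.382 CPM in BAT, 16.4 and 7.04 CPM in iWAT and 28.4 and 29.6 CPM in eWAT. Its BAT counts were 8 and 1. Krt19, also tested, was at 7.40 and 5.35 CPM in BAT, 13.0 and 4.02 CPM in iWAT and 0.932 and 2.84 CPM in eWAT. Its eWAT libraries thus lay below all others, unlike those of Wt1. Lrrn4, also tested, was at 4.02 and 8.79 CPM in BAT, 2.16 and 2.51 CPM in iWAT and 3.73 and 11.1 CPM in eWAT. Of the 4 tested genes, Wt1 alone was called for BAT against eWAT, with BAT the lower depot in both edgeR fits. The blocked fit also called Wt1 for BAT against iWAT (BAT lower) and Gpm6a for iWAT against eWAT (iWAT lower). The depot-only fit called no gene of the list in those contrasts. Gpm6a had 2 and 3 counts in BAT, 0 and 0 in iWAT and 12 and 14 in eWAT. It thus passed the filter through eWAT, the depot where it was high. The preadipocyte and fibroblast list (13 genes, 12 tested) summed to 3982 and 2930 CPM in BAT, 19581 and 20953 CPM in iWAT and 17270 and 18864 CPM in eWAT, with 8 genes called between BAT and eWAT, of which 1 was higher in BAT and 7 lower (1 and 10 with the block). The endothelial list, which bears on Rbp7 because capillary cells of fat also express it, summed to 264 and 133 CPM in BAT, 223 and 246 CPM in iWAT and 81.5 and 174 CPM in eWAT, with 0 of 11 called in the depot-only fit. The shares of all tested genes called between depots are those given above. The part of these lists in the retinoid genes was not tested. Skeletal muscle genes summed to 30.4 and 18.7 CPM in BAT, 14.9 and 20.1 CPM in iWAT and 41.0 and 12.8 CPM in eWAT, and Schwann cell genes to 33.4 and 56.2, 131 and 159, and 29.1 and 8.25 CPM in the same depots.

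Of 62 other genes listed for retinoid handling and response, 61 were in the table and 37 were tested. Between BAT and eWAT 1 was called higher and 3 lower by the depot-only edgeR fit, between BAT and iWAT 1 higher and 0 lower, and between iWAT and eWAT 0. With the block the counts were 11 higher and 8 lower, 6 higher and 3 lower, and 1 higher and 3 lower in the same contrasts. Their median log2 fold change was -0.23, -0.22 and -0.08. For the depot-only fit the shares of all tested genes in these contrasts, given above, were 6.46%, 1.04% and 0, and for the block 23.7%, 10.4% and 4.8%. Whether the product of each listed gene, such as Dhrs7b or Adh5, acts on retinoids in these cells was not tested.

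Among the carriers and uptake receptors, 0 of 5 tested were called with depot only, and the block fit called 3, each lower in BAT than in eWAT. Lrp1, a receptor for lipoprotein remnants that carry retinyl esters, was at 113 and 85.3 CPM in BAT, 895 and 284 CPM in iWAT and 1102 and 348 CPM in eWAT, with an edgeR adjusted p of 0.0685 with depot only and 0.00213 with the block for BAT against eWAT, and of 0.169 and 0.0067 for BAT against iWAT. Stra6l, a relative of Stra6 known as an Rbp4 receptor in mouse liver, was at 0.211 and 0.382 CPM in BAT, 0.722 and 3.52 CPM in iWAT and 3.26 and 6.26 CPM in eWAT (BAT against eWAT edgeR adjusted p = 0.0743, and 0.0104 with the block). The BAT values of Stra6l are 1 and 1 counts, below the limit of detection, against 3 and 14 counts in iWAT and 14 and 22 counts in eWAT. Stra6l thus passed the filter through its counts outside BAT. Fabp5, a lipid-binding protein that also binds retinoic acid, was between 312 and 499 CPM in all 6 libraries.

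Among the other dehydrogenases and reductases, 1 of 10 was called higher in BAT than in eWAT, and 6 with the block. Of all tested genes, 2.71% and 10.9% were called higher there. Dhrs9, a short-chain dehydrogenase active on retinol, was at 66.8 and 130 CPM in BAT, 29.1 and 68.4 CPM in iWAT and 10.7 and 19.3 CPM in eWAT. Within each replicate number the order was BAT above iWAT above eWAT, and the gene was higher in BAT than in eWAT by a log2 fold change of 2.71 (SE 0.55, edgeR adjusted p = 0.0435). The call was lost with limma voom (adjusted p = 0.0584), with the compared depots alone (0.0583) and on leaving out any library but BAT replicate 1 (0.0578 to 0.197). With the block Dhrs9 was also called higher in BAT than in iWAT and in iWAT than in eWAT (edgeR adjusted p = 0.0099 and 0.0036). It was lower in replicate 1 than in replicate 2 in all 3 depots, by a log2 difference of -1.03 (edgeR adjusted p = 0.00907). The most abundant genes of the list were Adh5, the class III enzyme (114 to 208 CPM over the 6 libraries), Dhrs7b (95.3 to 172 CPM), Dhrs3, which reduces retinaldehyde back to retinol (63.3 to 119 CPM), and Rdh13 (52.9 to 93.3 CPM). None of these 4 was called with depot only, and Adh5, Dhrs7b and Rdh13 were called higher in BAT than in eWAT with the block (edgeR adjusted p = 0.0281, 0.0172 and 0.00997), and for Adh5 DESeq2 with the block gave 0.116.

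Among genes of retinyl ester formation, hydrolysis and carotenoid handling, 0 of 5 tested were called with depot only, and the block fit called 3 between BAT and eWAT, 2 of them higher in BAT. With the block, 10.9% of all tested genes were called higher and 12.8% lower there. The lipases Lpl (2679 to 5633 CPM) and Lipe (765 to 1201 CPM) were abundant in all libraries. Dgat1, an acyltransferase that can also esterify retinol, ran from 230 to 533 CPM, and the carboxylesterase Ces1d from 92.4 to 469 CPM. Neither was called with depot only. With the block Dgat1 was higher in BAT than in eWAT and in iWAT (edgeR adjusted p = 0.034 and 0.0423), and Ces1d was higher in BAT than in eWAT (0.0241) and in iWAT (0.0029) and lower in iWAT than in eWAT (0.0248). Dgat1 and Ces1d were lower in replicate 1 than in replicate 2 (edgeR adjusted p = 0.0364 and 0.00569). Of the retinoic acid hydroxylases only Cyp26b1 was tested, at 8.24 and 1.91 CPM in BAT, 4.57 and 2.26 CPM in iWAT and 1.86 and 0 CPM in eWAT, and the edgeR adjusted p for BAT against eWAT was 0.0421 with the block and 0.243 without it. DESeq2 with the block gave 0.101, and on leaving out a library the log2 fold change ran from 0.93 without BAT replicate 1 to 7.36 without eWAT replicate 1. Cyp26a1 and Cyp26c1 had at most 1 count in a library.

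Among 7 receptors, all tested, 1 was called by the depot-only fit, where 3.75% of all tested genes were called lower in BAT than in eWAT. This was Rxra, the common partner receptor. It was at 47.8 and 51.6 CPM in BAT, 79.6 and 86.2 CPM in iWAT and 93.4 and 94.1 CPM in eWAT, which is lower in BAT than in eWAT by a log2 fold change of -0.92 (SE 0.16, edgeR adjusted p = 0.0329). The call was lost with the compared depots alone (adjusted p = 0.062) and on leaving out any of the 6 libraries (0.0679 without BAT replicate 1 to 0.151 without eWAT replicate 1). For BAT against iWAT the edgeR adjusted p of Rxra was 0.112, and 0.0211 with the block. The partner receptors Rxrb (24.1 to 47.4 CPM) and Rxrg (11.4 to 24.4 CPM) and the retinoic acid receptor Rarb (6.83 to 32.9 CPM) were not called in any contrast by either fit.

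Of 13 tested genes known to respond to retinoic acid, 2 were called between BAT and eWAT, both lower in BAT, and 1 was called higher in BAT than in iWAT. Of all tested genes, 3.75% and 0.145% were called in these directions. The block fit called 7 between BAT and eWAT, of which 3 were higher in BAT and 4 lower, beside 10.9% and 12.8% of all tested genes. Nrip1, a nuclear receptor corepressor, was at 46.7 and 50.9 CPM in BAT, 86.4 and 133 CPM in iWAT and 103 and 156 CPM in eWAT (BAT against eWAT log2 fold change -1.41, edgeR adjusted p = 0.0464). Its call was lost with limma voom (adjusted p = 0.0546), with the compared depots alone (0.062) and on leaving out any library (0.0646 to 0.171), and for BAT against iWAT its edgeR adjusted p was 0.145, and 0.0106 with the block. The homeobox gene Meis1 was at 21.8 and 18.4 CPM in BAT, 24.5 and 24.1 CPM in iWAT and 36.6 and 40.4 CPM in eWAT (log2 fold change -0.93, edgeR adjusted p = 0.0499). The Meis1 call was lost with relative log expression factors (adjusted p = 0.0513), limma voom (0.0562), the compared depots alone (0.0986), DESeq2 with the block (0.0636) and on leaving out any library (0.0701 to 0.183). Hoxa5, a homeobox gene of body position, was at 30.9 and 45.5 CPM in BAT, 2.41 and 3.02 CPM in iWAT and 20.5 and 21.6 CPM in eWAT (BAT against iWAT log2 fold change 3.79, edgeR adjusted p = 0.0154). That call was lost without BAT replicate 2 (adjusted p = 0.0839), iWAT replicate 1 (0.0905) or iWAT replicate 2 (0.112). With the block Hoxa5 was also called higher in BAT than in eWAT (edgeR adjusted p = 0.0296, and 0.113 without it) and lower in iWAT than in eWAT (0.0031, and 0.0759 without it). Tgm2, a transglutaminase (326 to 1163 CPM), and Rarres2, which encodes chemerin (189 to 455 CPM), were the most abundant of the list and were not called.

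**Figure D5:**
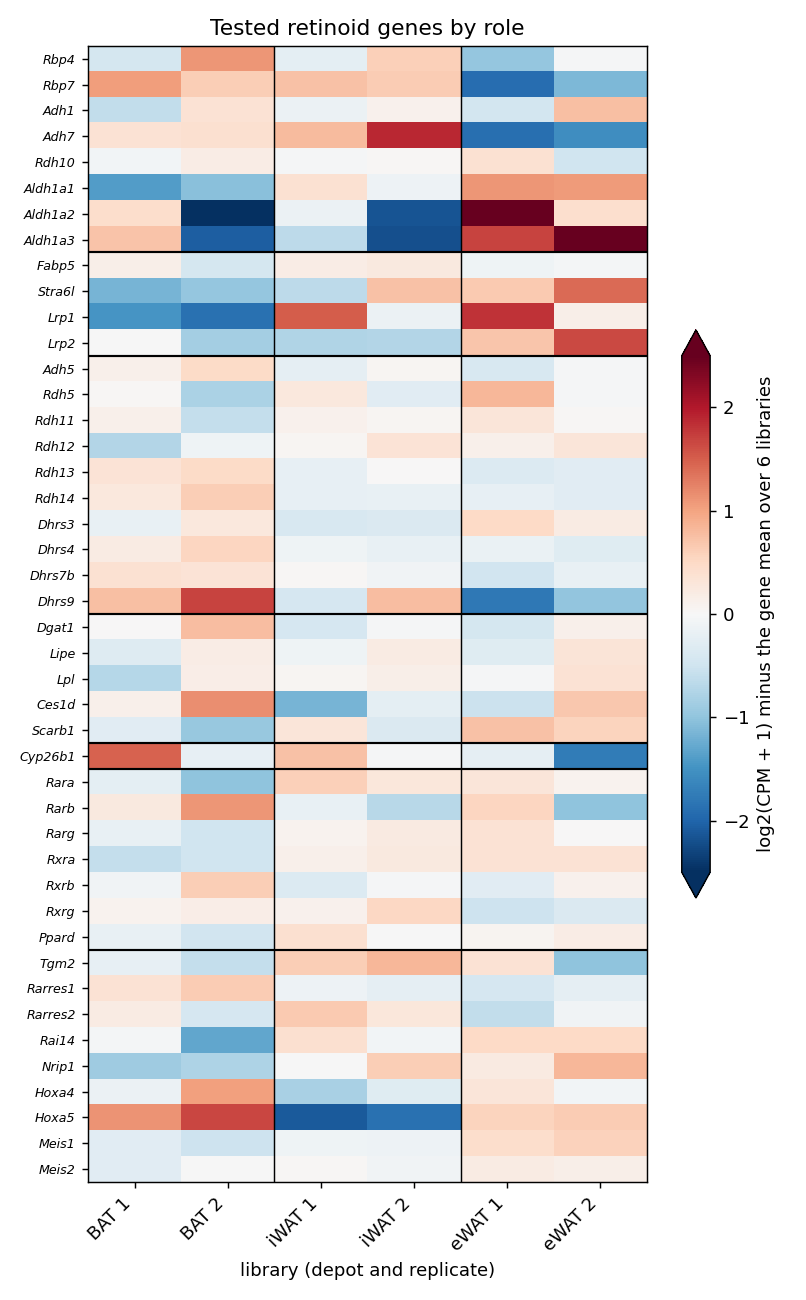
Log2(CPM + 1) minus the gene's mean over the 6 libraries for 44 tested retinoid genes (8 of the 9 genes at the top, then carriers, dehydrogenases, ester and carotenoid genes, clearance, receptors and responsive genes, each below a black line), with libraries ordered BAT, iWAT and eWAT, and colours saturating at 2.5 in either direction. Rbp7, Adh7 and Dhrs9 are lowest in eWAT, and the means of Aldh1a2 and Aldh1a3 are highest there.

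Tested genes most like each called retinoid gene were found by the root mean square difference of centred log2 CPM over the 6 libraries, among 10363 genes with a mean of at least 5 CPM. For Aldh1a1 these were Dtx4 (0.156; mean CPM 20.6 in BAT, 47.4 in iWAT and 89.3 in eWAT) and Cfi (0.168; 2.31, 7.12 and 14.2). For Rbp7 they were Ccdc3 (0.242; 25.3, 32.7 and 5.13), Prelid2 (0.344) and Ak4 (0.348). For Adh7 they were Art3 (0.451; 10.4, 16.7 and 2.12), Ccdc3 (0.466) and Thy1 (0.598; 59.7, 135 and 16.2). Adh7 and Rbp7 were 0.684 from each other.

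In the authors' deposited table, whose log2 fold changes run BAT over eWAT, BAT over iWAT and iWAT over eWAT for the 3 pairs, 6 of the 9 genes had an adjusted p below 0.05 between BAT and eWAT (Aldh1a1, Aldh1a2, Aldh1a3, Adh7, Rbp4 and Rbp7), where 15.6% of its 20295 genes did. In the authors' deposited table the same 6 genes passed between iWAT and eWAT (8.52% of genes), and Aldh1a1, Aldh1a3 and Adh7 passed between BAT and iWAT (8.24%). These shares include genes that the filter on low counts left out here, so they are not comparable with the shares over 11732 tested genes. The authors' deposited table gives log2 values for BAT against eWAT of -2.37 for Aldh1a1, -3.52 for Aldh1a2, -2.79 for Aldh1a3, 3.17 for Adh7, 0.87 for Rbp4 and 2.498 for Rbp7.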

How the data were processed

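RNA was measured in 6 libraries of cultured adipocytes, grouped by depot and replicate number from the labels. Per the submitters' processing notes, the authors aligned reads with STAR to mm9; versions, the counting program, strandedness and the treatment of multiply matching reads were not given in the sources used here. Raw read counts per gene were deposited in the count table, which also holds the counted length of each gene. Its start positions were read as counted from 0, since end minus start equals the stated span, and are printed counted from 1. The deposited table of comparisons holds the authors' log2 fold changes, p-values and adjusted p-values, and a likelihood ratio score that was not used. The tool behind it was not given in the sources used here. Harvest was on day 8 per the labels, while the column names carry the tag D7.

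Low counts were filtered with filterByExpr in edgeR, which kept 11732 of 20295 genes. A fit of all libraries with depot as the only term was tested with the two-sided edgeR quasi-likelihood F test, with trimmed-mean (TMM) scaling factors from 0.907 to 1.05 and Benjamini-Hochberg adjustment over the genes tested. Standard errors were taken as the size of the log2 fold change over the root of F. With 2 libraries per depot, precision rests on 3 residual and 3.34 prior degrees of freedom (biological coefficient of variation 0.251). CPM per kilobase used the counted length. Within-replicate differences are of log2 CPM with a prior count of 2. Limits for low counts cover counting error only. Scripts were tested on simulated data.

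Deviations of same-numbered libraries from their depot means correlated across 11732 genes at 0.448 (BAT and iWAT), 0.412 (BAT and eWAT) and 0.556 (iWAT and eWAT), so the replicate numbers were read as pairing the libraries. The labels give the numbers and not what they stand for. The blocked value is printed where it changes the call of a retinoid gene named in the text, and other changes stand as counts. Other alternatives were relative log expression factors, library totals alone, no filter, a stricter filter (5 CPM in 2 libraries), DESeq2, limma voom, the compared depots alone and leaving out each library. DESeq2 and limma voom with the block, and the comparison of replicate numbers, were chosen after seeing the data. The 9 genes and all lists were chosen with earlier results of these data known. The text names the 9 genes; in the other retinoid lists, genes called in a contrast and up to 4 of highest mean CPM; and the 3 genes most like each called retinoid gene. Stra6 was not tested. Some genes that this rule names are not reported here. Other genes of block calls and of marker lists were named after their values were seen. Where a gene had several RefSeq starts, the window whose gene span was nearest the counted span was used. Adgre1 was matched as Emr1, and Muc16 and Rdh18-ps were not used here. Software comprised DESeq2 1.42.0, limma 3.58.1, edgeR 4.0.16, R 4.3.3, Python 3.11.15 and matplotlib 3.10.9.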

Additional observations from a re-analysis of the deposited data

How the results depend on the processing

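The number of the 8 retinoid genes called between BAT and eWAT, 3 with depot only, was 5 with no filter on low counts, 1 with the compared depots alone, 5 with the replicate block in edgeR and 5 in limma voom, and from 0 to 2 on leaving out each library. Between BAT and iWAT it was 1 in place of 0 with library totals alone, with no filter, with DESeq2 and with the block in edgeR, DESeq2 and limma voom. Between iWAT and eWAT it was 5 in place of 0 with no filter, 3 with DESeq2, and 4, 5 and 4 with the block in edgeR, DESeq2 and limma voom. Over all genes the calls for BAT against eWAT, 758 with depot only, were 1937 with no filter, 1370 with DESeq2, 156 with the compared depots alone, 2780, 1812 and 3098 with the block in edgeR, DESeq2 and limma voom, and from 17 to 829 on leaving out each library. For BAT against iWAT they were 122, against 780 with no filter, 510 with DESeq2, 69 with limma voom, 1225, 845 and 1510 with the block in the same tools, and from 0 to 94 on leaving out each library. For iWAT against eWAT they were 0, against 557 with no filter, 301 with DESeq2, 1 with limma voom, 2 with the compared depots alone, 563, 470 and 664 with the block, and from 0 to 3 on leaving out each library. Calls between replicate numbers, 794, were 1837 with no filter. Besides the calls named in the report, the replicate block changed no other call among the 9 genes. On leaving out a library its partner was assumed to vary like the other depots.

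Signs turned for small differences. The log2 fold change of Rdh10 was -0.105 for BAT against eWAT and -0.024 for BAT against iWAT with library totals alone, and 0.026 with limma voom and 0.013 with DESeq2 and the block for iWAT against eWAT. On leaving out each library, values for BAT against eWAT ran from -0.91 to 0.42 for Adh1, -0.0148 to 1.58 for Rbp4, -0.34 to 0.61 for Rdh10 and -0.057 to 1.28 for Ces1d. For BAT against iWAT they ran from -2.02 to 2.09 for Aldh1a2, -1.85 to 4.11 for Aldh1a3, -0.62 to 0.39 for Adh1, -0.69 to 0.88 for Rbp4, -0.078 to 0.38 for Rbp7 and -0.059 to 0.21 for Rdh10, and for iWAT against eWAT from -0.78 to 0.47 for Adh1 and -0.41 to 0.54 for Rdh10. Over the alternatives for single genes, 602 values kept direction and side of the threshold, 107 passed it newly, 51 no longer passed and 21 turned sign. Library totals alone moved the median of all genes by -0.146 on the log2 scale for BAT against eWAT. The cause was not tested for any of these changes. Stra6 in all depots, Adh7 in eWAT and Aldh1a3 in replicate 2 of BAT and iWAT had 3 counts or fewer per library. The same holds for Stra6l in BAT and in iWAT replicate 1, and for Cyp26b1 in eWAT replicate 2.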
